A study of Mus musculus with 17 samples.

Results

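RNA of the exocrine pancreas was abundant in 3 of the 17 colon samples of this study. They were chosen by the value of Cpa1, which encodes carboxypeptidase A1, a digestive enzyme secreted by pancreatic acinar cells: a log2 value over 8 was found in 3 of 17 samples, namely replicate 2 of the CD4cre day 0 group, replicate 1 of the CD4cre day 2 group and replicate 2 of the WT day 2 group. Each was set against the other 2 samples of its own genotype and day, which gave 6 samples for comparison. The remaining 8 samples belong to groups in which no sample passed the threshold. The second marker of pancreatic tissue that had been proposed, pancreatic lipase, could not be checked, because no probe set carries its symbol in the annotation used here.

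Total RNA of the colon was hybridized to Affymetrix mouse expression arrays, which hold 45101 probe sets, and 45037 remained after 64 controls were set aside. CD4cre mice carry floxed alleles of PPAR γ and a Cre recombinase driven by the CD4 promoter, so that the receptor is deleted from CD4+ and CD8+ T cells, whereas WT mice lack the recombinase. The labels call the WT mice wild type and the study describes them as Cre-negative, and the sources differ on whether they carry the floxed alleles. All mice were of the C57BL/6J background and drank 2.5% dextran sodium sulfate (DSS), an agent that injures the colonic epithelium, except on day 0. There were 3 CD4cre samples on each of days 0, 2 and 7, 3 WT samples on days 0 and 2, and 2 WT samples on day 7. The sources name samples by replicate number without stating how many mice gave the RNA on each array. Any p-value therefore weighs a difference against the spread between these samples, which may not be that between mice.

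Values are on the log2 scale, after background adjustment and normalization by the authors, with a span of 0.76 to 16.47. The background level was taken as 3.37, the 95th percentile over 110 probe sets of genes that other tissues express, and between 50.1% and 51.1% of probe sets lay above it in each sample. The deletion cannot be checked in whole colon, where Pparg is expressed outside T cells, and its value lay between 8.28 and 11.21 over the 17 samples. The label of the tissue held in every sample: Muc2, the main mucin of goblet cells, was between 15.34 and 15.78, and no measured gene of the colon epithelium list was at background throughout. Within CD4cre day 0, replicate 3 stood apart from both others. Hoxb13, a homeobox gene of the most posterior group, had a value of 8.98 in replicate 2, 9.67 in replicate 1 and 2.97 in replicate 3. The water channel gene Aqp8 had 12.61 in replicate 2, 12.80 in replicate 1 and 6.52 in replicate 3. The count over all 3 groups and the DSS comparisons with this group are therefore also given without replicate 3.

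The exocrine pancreas consists mainly of acinar cells, which make digestive enzymes and store most of them as inactive precursors (zymogens) in granules, and of ducts that carry the juice to the duodenum. Acinar cells devote an unusually large share of their messenger RNA to a small set of secreted proteins: trypsinogens, chymotrypsinogens, elastases, carboxypeptidases, lipases, amylase and ribonuclease. Their transcription is driven by PTF1, a complex in which PTF1A binds an E-box and RBPJ or its pancreatic relative RBPJL binds an adjacent TGGGAA element. Scattered among the acini lie the islets, whose cells secrete hormones such as insulin.

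The promoters of 4 of the genes that separated the 3 samples are shown, as 250 bases up to the annotated start of the gene, because Cpa1 chose the samples and the promoters of Prss2, Ctrl and Cel hold both elements named above, while that of Cpa1 holds TGGGAA without CACCTG. Sequences are from RefSeq on GRCm38.p6, are written 5′ to 3′ on the strand of the gene, and have CACCTG (a form of the E-box) and TGGGAA in capitals on either strand, so that CAGGTG and TTCCCA are matches too. The intervals are chr6:30638968-30639217 for Cpa1 (plus strand), chr6:41521526-41521775 for Prss2 (plus strand), chr8:105933863-105934112 for Ctrl (minus strand) and chr2:28563404-28563653 for Cel (minus strand).
Cpa1: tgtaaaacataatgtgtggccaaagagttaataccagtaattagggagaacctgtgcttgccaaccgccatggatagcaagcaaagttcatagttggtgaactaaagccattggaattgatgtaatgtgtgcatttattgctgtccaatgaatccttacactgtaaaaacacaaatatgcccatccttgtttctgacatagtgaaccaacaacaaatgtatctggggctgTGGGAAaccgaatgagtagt
Prss2: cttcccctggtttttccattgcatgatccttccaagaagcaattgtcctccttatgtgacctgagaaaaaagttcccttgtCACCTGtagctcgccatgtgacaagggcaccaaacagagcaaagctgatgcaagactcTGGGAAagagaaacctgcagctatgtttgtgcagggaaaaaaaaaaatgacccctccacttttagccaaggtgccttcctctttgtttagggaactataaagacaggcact
Ctrl: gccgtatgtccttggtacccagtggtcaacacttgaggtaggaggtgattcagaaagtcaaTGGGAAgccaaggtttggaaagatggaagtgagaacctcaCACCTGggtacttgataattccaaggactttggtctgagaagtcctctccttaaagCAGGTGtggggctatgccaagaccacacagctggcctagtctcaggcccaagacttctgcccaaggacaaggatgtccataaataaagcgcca
Cel: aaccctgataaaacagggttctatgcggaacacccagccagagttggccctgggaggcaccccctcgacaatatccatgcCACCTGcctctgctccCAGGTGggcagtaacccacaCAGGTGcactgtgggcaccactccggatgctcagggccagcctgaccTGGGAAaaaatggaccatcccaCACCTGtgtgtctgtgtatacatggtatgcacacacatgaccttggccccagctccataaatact

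Of the 19 genes described below, 18 had a promoter in the table. CACCTG was found in 10 of the 18 (55.6%), against 17.2% of all 32851 promoters in windows of the same length, and TGGGAA in 13 (72.2%), against 21.6%. Both were found in 7 (38.9%), against 3.91% of all promoters, and neither in Cuzd1 and Pla2g1b. The 2 motifs do not overlap in the sequences shown. These counts describe letters in a window and say nothing about occupancy.

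The value of Cpa1 was 12.85 in CD4cre day 0 replicate 2, 12.51 in CD4cre day 2 replicate 1 and 12.18 in WT day 2 replicate 2, against 1.95 to 2.03 in the other 14 samples (median 1.99). Nothing lay between these 2 ranges, so the sample just inside the threshold was WT day 2 replicate 2 and the highest sample outside it was at background. A probe set was counted as higher when the sample lay at least 1 on the log2 scale (a factor of 2) above both other samples of its group, in all 3 groups, and was itself above background. By this rule 37 probe sets were higher (0.0822% of 45037) and 0 were lower (0% of 45037). The same samples chose and measured these probe sets, so the counts are a description and were not tested. In 2 of the 3 groups 42 probe sets passed and in only 1 group 867, while 17 and 252 were lower in 2 groups and in 1 group. The smallest of the 3 gaps was 1.13 to 11.53 over the 37 probe sets, with a median of 8.59.

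**Figure D1:**
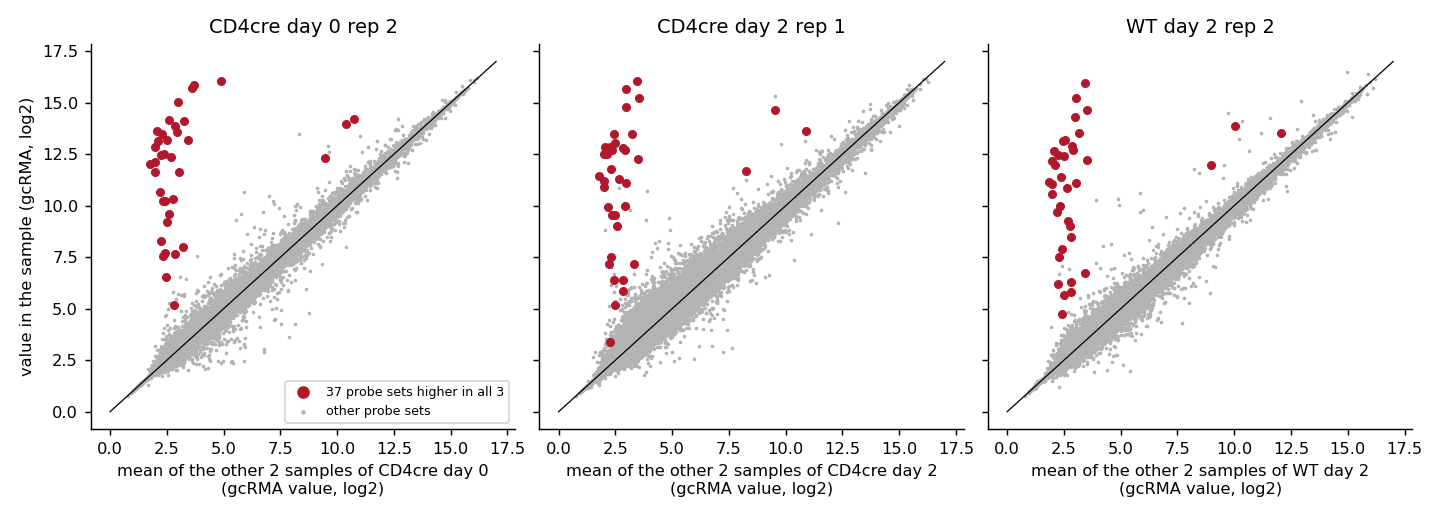
Value of every probe set in each of the 3 samples with Cpa1 over 8 (vertical, log2) against the mean of the other 2 samples of its group (horizontal, log2), with the line of equality. The 37 probe sets higher in all 3 groups are in red, and most rise from background on the left to between 5 and 16, while the rest of the array follows the line, more widely in CD4cre day 2 replicate 1.

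Of the 37 probe sets, 29 carried 1 gene symbol and stood for 19 genes, 4 carried several symbols and 4 carried none. All 19 genes belonged to lists of acinar cell genes, which were drawn up with earlier results of these data known. These 5 lists held 63 genes, of which 54 were measured, 19 were higher and 35 did not pass the rule. By list, 9 of 12 measured proteases, 5 of 7 lipases, amylases and ribonucleases, 4 of 11 secreted and granule proteins, 1 of 15 support genes and 0 of 9 transcription factors were higher. In the other 6 samples 29 of the 37 probe sets were at background in every sample.

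The proteases and their zymogens gave the widest gaps. Cela2a, an elastase, had 14.18 in the CD4cre day 0 sample, 13.49 in the CD4cre day 2 sample and 13.20 in the WT day 2 sample, against 2.43 to 2.73 in the other 6 samples (median 2.47). Measured against the background level, this is at least 912-fold higher in the lowest of the 3 samples. Cela3b, another elastase, had 15.84, 15.25 and 14.66 in the same order of samples, kept in what follows, against 3.50 to 3.83 in the other 6 samples (median 3.56). All 4 of its probe sets with 1 symbol passed. The groups did not come near each other for either elastase.

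Cpb1, carboxypeptidase B1, had 13.47, 12.86 and 12.45 in the 3 samples, against 2.25 to 2.28 (median 2.26) in the other 6. Prss2, a trypsinogen, had 13.21, 12.28 and 12.21 in the probe set with the highest mean over all 17 samples, against 3.43 to 3.60 (median 3.46). Its other 3 probe sets also passed and were brighter in these samples, with 12.71 to 14.11. Ctrb1, a chymotrypsinogen, had 12.50, 12.71 and 12.44, against 2.32 to 2.71 (median 2.35). These 3 enzymes cut proteins in the gut lumen once activated, and for each the lowest of the 3 samples lay far above the highest of the other 6. Ctrl, which encodes a chymotrypsin-like protease, had 12.48, 11.76 and 11.39, against 2.22 to 2.52 (median 2.25). The gene 2210010C04Rik had 15.05, 14.81 and 14.33 in its brightest probe set, against 2.94 to 3.00 (median 2.99), and all 3 of its probe sets passed.

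Lipid-digesting enzymes and ribonuclease followed the same samples. Pnliprp1, a relative of pancreatic lipase, had 12.14, 11.20 and 11.07, against 1.97 to 2.00 (median 1.99) in the other 6 samples. Cel, the bile salt-stimulated lipase, had 10.68, 9.95 and 9.72, against 2.14 to 2.22 (median 2.21). Rnase1, the pancreatic ribonuclease, had 11.65, 10.89 and 10.57, against 1.97 to 2.00 (median 1.98). The 3 samples were well apart from the others in each case. Pla2g1b, the secreted phospholipase A2 of pancreatic juice, had 7.58, 7.50 and 7.51 in its brightest probe set, against 2.29 to 2.33 (median 2.32), and 2 of its 4 probe sets passed. A probe set that the annotation pairs with 5 amylase genes, Amy2a1 to Amy2a5, had 16.06, 16.06 and 15.96, against 3.23 to 6.21 (median 3.59). It therefore names no single gene.

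**Figure D2:**
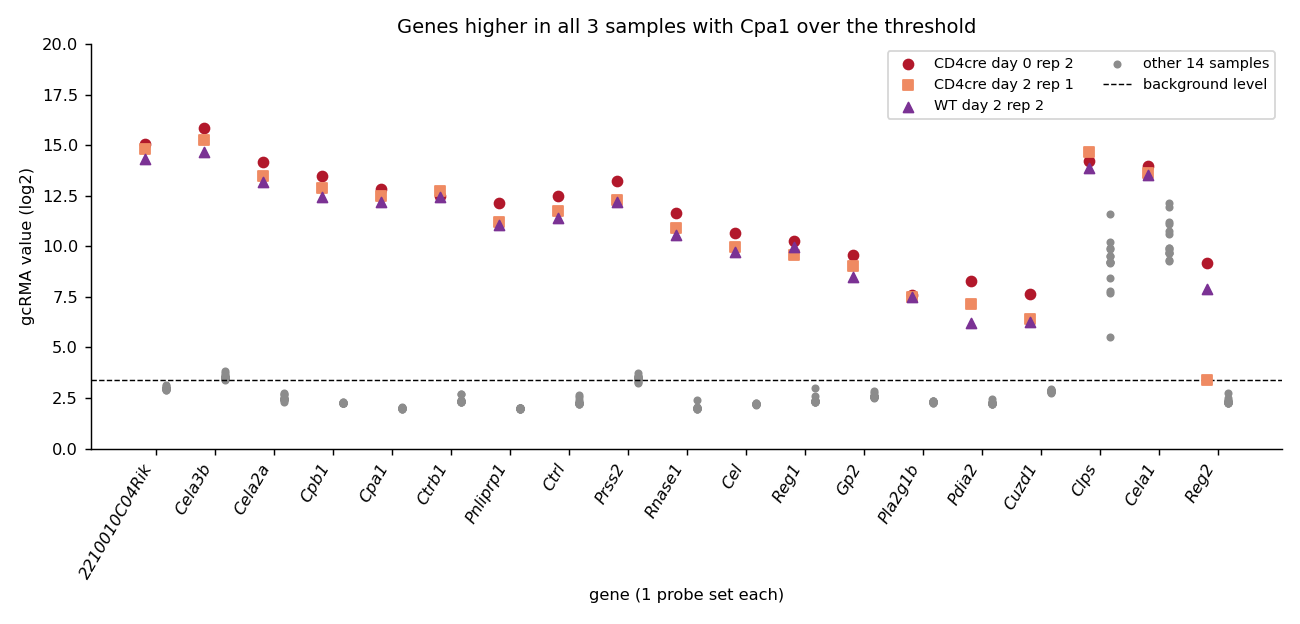
Log2 value of the 19 genes higher in all 3 samples (1 probe set each), with the 3 samples as coloured symbols on the left of each gene and the other 14 samples as grey points on its right; the dashed line is the background level of 3.37. For Clps and Cela1 the grey points lie well above background, and for Reg2 the square of CD4cre day 2 replicate 1 lies at 3.41.

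Secreted proteins that are not digestive enzymes were also present. Gp2, the major glycoprotein of the zymogen granule membrane, had 9.59, 9.0 and 8.48 in the 3 samples, against 2.54 to 2.84 (median 2.59) in the other 6. Cuzd1, another granule membrane protein, had 7.65, 6.41 and 6.27, against 2.81 to 2.87 (median 2.85). Reg1, a lectin-like protein of pancreatic juice, had 10.25, 9.55 and 9.98, against 2.32 to 2.35 (median 2.35). For all 3 genes the lowest of the 3 samples was far above the highest of the others. Pdia2, a protein disulfide isomerase found mainly in the pancreas, had 8.29, 7.15 and 6.19, against 2.22 to 2.26 (median 2.25).

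Reg2 was the exception among the 37 probe sets. This relative of Reg1 had 9.20 in CD4cre day 0 replicate 2 and 7.90 in WT day 2 replicate 2, but 3.41 in CD4cre day 2 replicate 1, close to the background level, against 2.26 to 2.77 (median 2.30) in the other 6 samples. Its smallest gap was 1.13, just inside the rule.

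Clps and Cela1 were expressed in the colon samples without Cpa1 as well. Clps, which encodes the colipase that anchors pancreatic lipase to fat droplets, had 14.22, 14.65 and 13.89 in the 3 samples, against 9.50 to 11.57 (median 9.88) in the other 6. Cela1, an elastase gene that in mice is also transcribed outside the pancreas, had 13.96, 13.63 and 13.54, against 9.65 to 12.12 (median 11.15). The 3 samples remained the highest for both genes, with smallest gaps of 2.65 and 1.42.

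Acinar genes that did not pass fell into several kinds. Of the 35 genes, 11 had a mean over 9 across all samples, among them Zg16, a granule lectin that goblet cells also make, and Klk1, tissue kallikrein. Zg16 had 16.12, 16.02 and 15.72 in the 3 samples, against 15.71 to 16.33 in the other 6, and Klk1 had 15.50, 15.39 and 15.53, against 15.43 to 15.71. The ranges of the 2 kinds of sample overlapped for both. Another 9 of the 35 were at background in every sample. Among them was Ctrc, of the protease list, with 2.93, 2.46 and 2.27 in the 3 samples. The pancreas-restricted transcription factors stayed at background in every sample. Ptf1a, the DNA-binding subunit of PTF1, was between 2.14 and 2.23 over all 17 samples, and Rbpjl was between 1.91 and 1.97. Bhlha15, a regulator of secretory cells also known as Mist1, had 5.77, 5.39 and 6.69 in the 3 samples, against 5.12 to 5.91 in the other 6.

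A few acinar genes were seen in only some of the 3 samples. Serpini2, a serine protease inhibitor, had 5.55 in WT day 2 replicate 2 and 2.51 to 2.61 in the other 16 samples. Prss3, a trypsin gene, had 3.22, 3.79 and 4.05 in the 3 samples, against 2.48 to 2.56 in the other 6, and missed the rule because CD4cre day 0 replicate 2 lay only 0.66 above the others of its group and below background.

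Pnliprp2, a lipase of the pancreas and of other epithelia, missed the rule through 1 sample. One of its probe sets had 9.91 in CD4cre day 0 replicate 2, 9.41 in CD4cre day 2 replicate 1 and 10.35 in WT day 2 replicate 2, against 10.36 in CD4cre day 0 replicate 1, which had Cpa1 at 2.00, and 4.46 to 5.23 in the other 5 comparison samples. Its other probe set had 10.48, 10.71 and 10.30 in the 3 samples, against 9.91 in CD4cre day 0 replicate 1 and 3.80 to 4.13 in the other 5. CD4cre day 0 replicate 1 was thus among the high samples in both, above replicate 2 in one and below it in the other. The same replicate 1 had the highest Clps value outside the 3 samples (11.57) and the highest value of the probe set paired with 5 genes (6.21). Of the 32 probe sets that were usually at background (median over the 14 other samples), 2 exceeded it in that replicate, 1 in CD4cre day 0 replicate 3, 2 in CD4cre day 2 replicate 3, 2 in WT day 2 replicate 3 and 0 in each of the other 10 samples. Without CD4cre day 0 replicate 1, the rule took in 45 probe sets, both of Pnliprp2 among them and all 37 of the original ones. Without replicate 3 it took in 38. Outside the 3 groups, Pnliprp2 was also high in CD4cre day 7 replicate 2, with 8.54 and 7.34 in its probe sets and Cpa1 at 1.95.

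The 3 samples differed from each other by a median offset under 1, which varied between probe sets. Over the 29 probe sets at background in the other 6 samples, CD4cre day 0 replicate 2 exceeded CD4cre day 2 replicate 1 by a median of 0.69 (quartiles 0.53 and 0.94) and was the higher in 27 of 29. It exceeded WT day 2 replicate 2 by a median of 0.98 (quartiles 0.67 and 1.11) and was the higher in 28 of 29. CD4cre day 2 replicate 1 exceeded WT day 2 replicate 2 by a median of 0.28 (quartiles 0.00038 and 0.40), in 22 of 29. The differences ranged from -0.66 to 5.79, -0.60 to 2.94 and -4.50 to 1.63 for these pairs in turn, with Reg2 at 5.79 and at -4.50. The same order of the 3 samples held in 20 of the 29 probe sets. Pearson's r between the samples over these probe sets was 0.934, 0.971 and 0.943 in the order of the pairs above, across probe sets, which share the arrays and are not independent. Fewer acinar cells and less RNA per cell cannot be told apart in such samples.

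**Figure D3:**
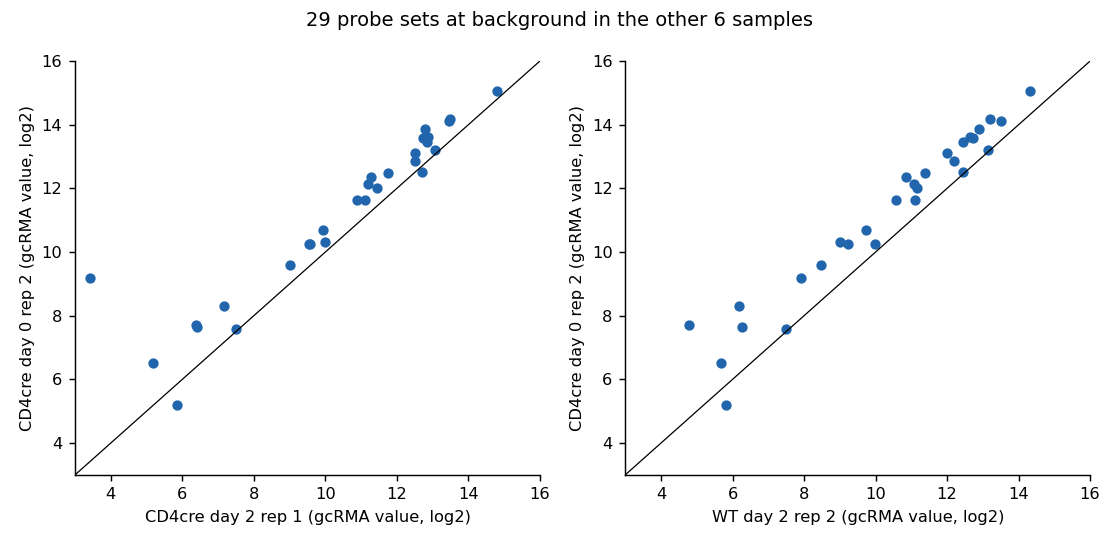
Values (log2) of the 29 probe sets at background in the other 6 samples, in CD4cre day 0 replicate 2 (vertical) against CD4cre day 2 replicate 1 (left panel) and against WT day 2 replicate 2 (right panel), with the line of equality. Most points lie just above the line, by a median of 0.69 on the left and 0.98 on the right, and Reg2 is the point at 3.41 on the left.

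Of 15 islet genes measured, 3 lay at least 1 above both other samples of the group in CD4cre day 2 replicate 1. The count was 0 in CD4cre day 0 replicate 2 and 0 in WT day 2 replicate 2. Over all probe sets the shares were 1.74%, 0.249% and 0.373% in the same order, so the counts of 0 are near the share of the array. Ins2, which encodes insulin, had 8.82 in CD4cre day 2 replicate 1 and 2.02 to 2.07 in the other 16 samples. In the same sample Iapp, the amyloid polypeptide secreted with insulin, had 9.93, against 3.04 in each of the other 2 samples of its group, and Ppy, pancreatic polypeptide, had 7.62, against 6.25 and 6.32. Iapp was also high in samples without Ins2, such as CD4cre day 0 replicate 3 with 10.53, so it does not separate the islet from the colon here. Gcg, the glucagon gene that colonic endocrine cells also express, had 12.12, 12.27 and 11.73 in the 3 samples, against 12.22 to 12.57 in the other 6. Of the 15 genes, 7 were at background in all samples, including the beta cell genes Slc30a8, a zinc transporter, and Nkx6-1, a transcription factor, and none passed the rule in all 3 groups. None of 8 pancreatic duct genes passed either. Both counts are near the 0.0822% of all probe sets that passed.

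**Figure D4:**
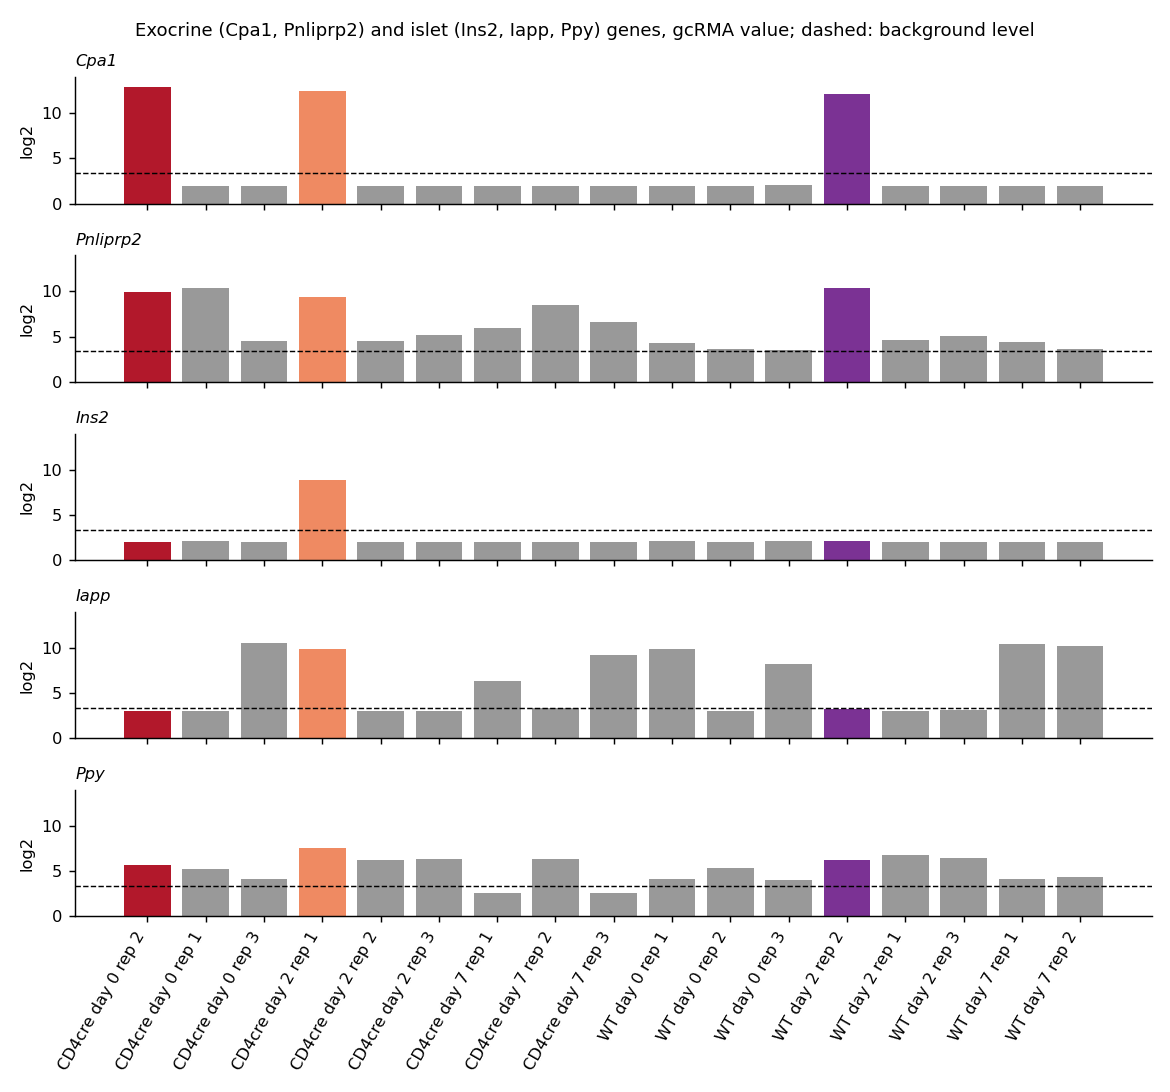
Log2 value of 2 exocrine genes (Cpa1, Pnliprp2) and 3 islet genes (Ins2, Iapp, Ppy) in all 17 samples, by genotype and day, with the 3 samples with Cpa1 over 8 coloured and placed left of the others of their group; bars start at 0 and the dashed line is the background level. Ins2 stands out in CD4cre day 2 replicate 1 alone (8.82). Pnliprp2 is also high in CD4cre day 0 replicate 1 (10.36) and CD4cre day 7 replicate 2 (8.54).

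Genes of other organs and cell types gave no such split in their median differences. The rule passed 0.0822% of all 45037 probe sets as higher and 0% as lower, so counts of 0 in these lists are near that share. Over 19 further lists with 234 genes measured (duct, islet, fat, liver, stomach, small intestine, colon epithelium, muscle, nerve, mesothelium, immune cells, proliferation, secretory chaperones, clock and Hox genes), 0 genes were higher and 0 lower in all 3 groups. The median difference between a sample and the mean of the other 2 of its group was -0.61 to 0.46 over these lists and the 3 groups. In the acinar proteases it was 10.19 in CD4cre day 0, 9.92 in CD4cre day 2 and 9.46 in WT day 2. Over all 45037 probe sets it was 1.6e-05, -0.028 and 0.015 in the same order. Of 14 liver genes, 11 were at background in all samples, as were 7 of 10 stomach genes.

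The chaperones and translocon subunits of the endoplasmic reticulum, through which acinar cells push their enzymes, had overlapping values in the 2 kinds of sample. The mean of 19 such genes was 11.01 to 11.20 in the 3 samples and 10.93 to 11.19 in the other 6. The 3′ to 5′ measures of RNA quality on the array overlapped too. The 3′ minus 5′ difference of the control probe sets was 1.06 to 1.44 for Actb in the 3 samples and 1.09 to 1.73 in the other 6. For Gapdh it was -0.08 to 0.01 in the 3 samples and -0.15 to 0.58 in the other 6.

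**Figure D5:**
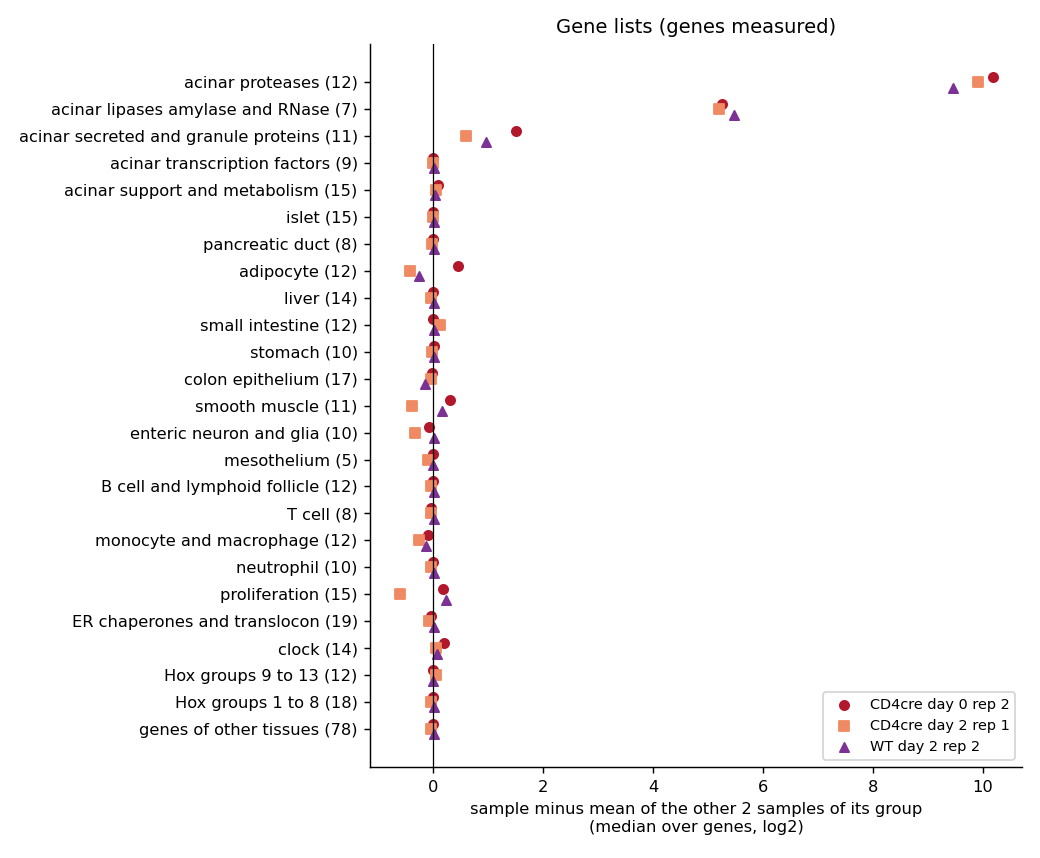
Difference between each of the 3 samples and the mean of the other 2 samples of its group, as the median over the genes of each list (log2), with the number of genes measured in brackets. Acinar proteases lie at 9.46 to 10.19, and no list outside the acinar ones passes -0.61 to 0.46.

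The 3 samples differed in how much else set them apart. In CD4cre day 2 replicate 1, 782 probe sets (1.74%) were at least 1 above both others of its group and 176 were lower. In CD4cre day 0 replicate 2 the counts were 112 (0.249%) and 21, and in WT day 2 replicate 2 they were 168 (0.373%) and 89. Apart from the 37 shared probe sets, 745, 75 and 131 were higher in these samples. Malat1, a long noncoding RNA kept in the nucleus, had 14.93 in CD4cre day 2 replicate 1, against 13.70 and 13.77 in replicates 2 and 3, and reached 15.58 in the 14 samples without Cpa1. One probe set each of the splicing genes Sfpq (9.67, against 7.32 and 7.42) and Srrm2 (9.43, against 7.33 and 7.30) was higher there too, while the probe set of Sfpq with the highest mean had 10.59, against 10.40 and 10.38. The part of this difference in the 782 probe sets was not tested. Without the 37 probe sets, Pearson's r across probe sets of CD4cre day 0 replicate 2 was 0.997 with replicate 1 and 0.991 with replicate 3, against 0.994 and 0.988 with them. For CD4cre day 2 replicate 1 it was 0.992 and 0.990 with replicates 2 and 3, against 0.989 and 0.987 with the 37, and below the 0.996 between those replicates. For WT day 2 replicate 2 it was 0.996 and 0.995 with replicates 1 and 3, against 0.993 and 0.992 with the 37. The 37 were picked for gaps between these samples and their groups, so the rise in r without them follows from the choice.

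The DSS comparisons set groups with 1 such sample against groups with 1 or none. For day 2 against day 0 in WT mice, 1 of 3 day 2 samples and 0 of 3 day 0 samples had Cpa1 over 8. The limma model held 6 group means estimated from all 17 arrays, and calls were those with an adjusted p under 0.05 (Benjamini-Hochberg over 45037 probe sets, two-sided). In WT mice 202 probe sets were called on day 2 against day 0 (0.449%), 113 higher and 89 lower. None of the 37 was among them (1 had an unadjusted limma p under 0.05), and their median log2 fold change was 2.80 with a median standard error of 3.04.

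Cpa1 had a log2 fold change of 3.38 (SE 3.52) on day 2 against day 0 in WT mice. Without the 3 samples it was -0.014 (SE 0.019). The residual SD of the 37 probe sets had a median of 3.87, against 0.14 over all probe sets, and fell to 0.067 without the 3 samples. Of the 37 probe sets with the highest residual SD on the array, 26 were among the 37 higher in the 3 samples. Those were picked for such gaps within groups, and the samples by Cpa1. The high residual SD and the changes without the 3 samples therefore follow from the choice.

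The calls changed when the 3 samples were left out, and also when single samples without Cpa1 were. In WT mice on day 2 against day 0, 69 probe sets were called (0.153%), of which 35 were also among the 202. In CD4cre mice on day 2 against day 0, 26 were called without the 3 samples (0.0577%) and 8 with all samples (0.0178%), and 5 were shared. Of the 37 probe sets, 0 were called by limma in either fit and 0 had an unadjusted p under 0.05. In CD4cre mice on day 7 against day 0, 859 were called without them (1.91%) and 3036 with all samples (6.74%), and 791 were shared. Leaving them out leaves 2 samples in the CD4cre day 0, CD4cre day 2 and WT day 2 groups. In WT mice on day 2, leaving out WT day 2 replicate 2 alone gave 66 calls, against 37 without replicate 1 and 83 without replicate 3, and 45, 131 and 68 without replicates 1, 2 and 3 of WT day 0. In CD4cre mice on day 2, 104 were called without CD4cre day 2 replicate 1, against 27 and 31 without its replicates 2 and 3, and 13 without CD4cre day 0 replicate 2, against 15 without replicate 3. In CD4cre mice on day 7, 1295 were called without CD4cre day 0 replicate 2, against 1371 and 1943 without its replicates 1 and 3, and 5240 without CD4cre day 7 replicate 3. The count therefore moved by over 1.5 times without the samples with Cpa1 and without several others. With all samples 1575 of the 3036 were higher and 1461 lower, but after centring each array on its median 18002 were called, 2559 higher and 15443 lower. The sample medians on which that centring rests lay between 3.37 and 3.48, near the background level.

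Colon-expressed members could also be compared in the remaining 14 samples alone. The CD4cre day 0 and WT day 2 samples among them served as comparison samples in the choice of the 37 probe sets. Clps was called lower on day 7 against day 0 in CD4cre mice, with 5.51, 7.77 and 7.68 on day 7 against 11.57 and 9.91 on day 0, and a log2 fold change of -3.76 (SE 0.69, limma adjusted p = 0.035). The 11.57 is that of CD4cre day 0 replicate 1, the sample with Pnliprp2 at 10.36. The call was absent when CD4cre day 0 replicate 2 alone was left out (limma adjusted p = 0.25 at the same fold change) and in a fit of only the 2 groups compared with all their samples (0.21). Its second probe set had -4.53 (SE 1.15, limma adjusted p = 0.090). With all 17 samples the second was called and the first was not (limma adjusted p = 0.034 for the second and 0.077 for the first). Cela1 was not called without the 3 samples on day 7 in CD4cre mice (log2 fold change -0.74, SE 0.50, limma adjusted p = 0.44). Nor was it on day 2 in WT mice (2.15, SE 0.50, limma adjusted p = 0.19). Gp2 was the 1 probe set of the 37 called on day 2 against day 0 in WT mice without the 3 samples (log2 fold change 0.20, SE 0.029, limma adjusted p = 0.048), but its values of 2.84 and 2.76 on day 2 against 2.59, 2.57 and 2.62 on day 0 were all below background.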

How the data were processed

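The deposited table holds log2 values per probe set for 17 arrays. The authors imported the scans with affy and ran gcRMA (R 2.9.0), a method that corrects the background by probe sequence, normalizes the arrays jointly and summarizes each probe set, so a value depends on all arrays in the set. Probe sets were named from the platform annotation: 34945 carry 1 symbol, 932 several and 9160 none, and only those with 1 symbol name a gene. Where a gene had several probe sets, the one with the highest mean stood for it in the lists.

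The samples, the gene lists and the tests were chosen with earlier results of these data known. Samples with a Cpa1 value over 8 were described against the other 2 samples of their group, with a gap of at least 1 and a background level at the 95th percentile of 110 probe sets of other tissues, and were not tested. The text names every acinar gene that passed, and up to 4 defining genes of the other lists; genes in the closing section were chosen after their values were seen. The DSS comparisons used limma 3.58.1 in R 4.3.3 with 6 group means and Benjamini-Hochberg adjustment. The rule and the fit were run on simulated data with planted shifts, which checks the code and not the results. The number of arrays limits the precision. Promoters are from RefSeq on GRCm38.p6. Alternatives covered other gaps and thresholds, centring, filters, covariates and leaving out samples. The raw arrays were not analysed here.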

Additional observations from a re-analysis of the deposited data

Results flagged for a closer look

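Among the genes of the lists, 5 lay at least 1 above both other samples of the group in one of the 3 samples and at least 1 below both in another. These differences between groups were not tested, and the share of all probe sets with such opposite directions was not counted. Smim5, not among the 5, lay 2.82 above in CD4cre day 0 and 2.16 below in CD4cre day 2. Cyp2e1, a cytochrome P450 of liver and fat, lay 3.52 above in CD4cre day 0, but 3.88 below in CD4cre day 2 and 2.36 below in WT day 2. Adipoq, the adipocyte hormone adiponectin, lay 1.93 above in CD4cre day 0, 1.73 below in CD4cre day 2 and 1.61 below in WT day 2. Car3, a carbonic anhydrase of fat and muscle, lay 1.90 above in CD4cre day 0 and 1.40 below in CD4cre day 2. Retn, which encodes resistin, lay 1.27 above in CD4cre day 0 and 1.00 below in CD4cre day 2. Alpi, the intestinal alkaline phosphatase, lay 1.00 above in CD4cre day 0, 1.51 below in CD4cre day 2 and 2.29 below in WT day 2. The mean of 12 adipocyte genes was 6.41 in CD4cre day 0 replicate 2, against 5.85 and 5.05 in the other samples of its group. It was 5.60 in CD4cre day 2 replicate 1, against 6.01 and 6.58, and 5.66 in WT day 2 replicate 2, against 6.06 and 6.35. The part of adipose tissue in the results above was not tested.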

How the results depend on the processing

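The 3 samples stayed the same at Cpa1 thresholds of 6 and 10; the choice by Pnlip was not run, as no probe set carries that symbol here. A gap of at least 2 gave 35 probe sets higher, and the difference from the mean of the other 2 samples gave 41 higher and 3 lower. With 1 probe set per gene 19 were higher. Leaving out 1 comparison sample gave 37 to 45 higher and 0 to 1 lower. With only the groups CD4cre day 2 and WT day 2, 70 were higher and 14 lower, with only CD4cre day 0 and CD4cre day 2, 45 higher and 3 lower, and with only CD4cre day 0 and WT day 2, 38 higher. All 37 were kept in each of these except the gap of 2 and the choice of 1 probe set per gene. This was fixed in advance, as fewer samples or groups, or the mean of the others, cannot narrow a gap. They make the rule easier to pass. None of 266 smallest gaps of the 19 genes fell under 1, but only median centring could have lowered them. After that centring all 37 passed, and the lowest gap was 1.11. For the DSS comparisons, the fits without the 3 samples called 26 probe sets in CD4cre mice on day 2, 69 in WT mice on day 2 and 859 in CD4cre mice on day 7. The mean of the acinar enzyme genes as a covariate gave 8 in CD4cre mice on day 2, 56 in WT mice on day 2 and 2361 in CD4cre mice on day 7. A filter on low values gave 9 in CD4cre mice on day 2, 443 in WT mice on day 2 and 4047 in CD4cre mice on day 7. A fit of only the groups compared gave 1, 58 and 28, and median centring gave 18002 in CD4cre mice on day 7. Leaving out 1 sample gave 11 to 104, 37 to 131 and 1295 to 5240. The cause of these changes was not tested. The log2 fold change of Cpa1 on day 2 in WT mice was -0.014 without the 3 samples, -0.27 with the covariate and -0.014 to 5.08 when 1 sample was left out. With the replicate number as a replicate block, 2, 134 and 2646 probe sets were called, but only 15 of 40 same-numbered pairs correlated over 0.1 (range -0.42 to 0.48), so the numbers were not taken as pairs.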

Other observations

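CD4cre day 2 replicate 1 also carried genes best known from the absorptive cells of the small intestine. Apoa1, the main protein of high-density lipoprotein, had 6.69 there, against 2.41 and 2.43 in replicates 2 and 3. Apoa4, an apolipoprotein made when fat is absorbed, had 7.03 in one probe set, against 2.31 and 2.28, and 5.49 in another, against 2.71 and 2.72. Fabp1, a fatty acid-binding protein, had 8.29, against 4.22 and 4.61, and reached 7.41 in the 14 samples without Cpa1. Of 12 small intestine genes measured, 1 was at least 1 above both other samples in this sample and 1 at least 1 below. Over all probe sets the shares were 1.74% above and 0.391% below. The mean of 15 proliferation genes was 6.82 in replicate 1, against 7.51 and 7.44 in replicates 2 and 3, and 0 of the 15 lay above both. Of all 45037 probe sets, 9594 lay above both.

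WT day 2 replicate 2 lay above both other samples of its group in several genes that the acinar lists do not hold. Some exceeded all 14 samples without Cpa1. Hoxd13 had 7.60, against at most 6.37 in those, and Iglv1 had 12.67 in its probe set with the highest mean, against at most 11.37. Others lay within the range of the 14 samples. Reg3b, an antimicrobial lectin, had 10.05, against 5.94 and 3.87 in replicates 1 and 3, while its median over the 14 samples was 14.02 and its highest value 15.06. Reg4 had 14.10, against 10.60 and 10.08, and reached 14.58 in WT day 0 replicate 3. Itln1, an intelectin of goblet and Paneth cells, had 10.63, against 7.20 and 4.47, and reached 11.29 in CD4cre day 0 replicate 1. Mmp3, a matrix protease induced by inflammation, had 7.00, against 3.86 and 4.32, and reached 13.14 in CD4cre day 7 replicate 2. All of these genes were picked for their size and were not tested.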
